A study of Mus musculus with 13 samples.

Results

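The 78 genes described here are those named for the proteins of the mitochondrial ribosome, measured in mouse brain. They were chosen by name from the 37636 genes of the deposited table, as protein-coding genes whose symbols start with Mrpl or Mrps followed by a digit, without pseudogene copies, and with a mean of at least 1 FPKM (a fragment count divided by gene length and library size) over the 13 libraries. All 78 genes with such a name passed that minimum, from Mrps35 at 1.49 to Mrpl41 at 35.8 FPKM, and they stand among 13905 genes tested.

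The libraries came from brain RNA of male Balb/c mice aged 6 to 8 weeks, the brain region not being named. Con stands for 4 libraries of mice kept under the normal condition without 6-OHG. Mod stands for 5 libraries of mice placed at an altitude of 8000 m for 24 h without 6-OHG. The remaining group, written 6-OHG, holds 4 libraries of mice given the same exposure together with 6-OHG, a compound known here only by that code and with no dose stated. All 6-OHG mice were thus also exposed to altitude, and none of the groups used here received 6-OHG under the normal condition. Replicates are not described as separate animals, so the p-values measure the spread between these libraries, which may be technical.

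The mitochondrial ribosome is built inside the organelle from 2 ribosomal RNAs encoded by mitochondrial DNA and from proteins that are all encoded in the nucleus, made in the cytosol and imported. Its only products are the few subunits of the respiratory chain and of ATP synthase that mitochondrial DNA still encodes. Some of its proteins have counterparts in bacterial ribosomes, while others were gained in the course of mitochondrial evolution. Neurons depend heavily on respiration, and inherited defects in several of these proteins cause diseases of brain and heart.

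Of the 78 genes, 51 encode proteins of the large subunit and 26 of the small subunit. Mrps18a and Mrps30 are counted with the large subunit, where their proteins sit in spite of the names. Mrps36 was left in neither, since its protein is known as a part of the 2-oxoglutarate dehydrogenase complex. By origin, 47 have a bacterial counterpart and 31 do not. The genes lie on 17 chromosomes, and the median of their mean levels was 8.14 FPKM, 8.20 for the large and 7.54 for the small subunit. FPKM is scaled by gene length, which allows a rough comparison of levels between genes. Overlaps with other genes, pseudogene copies and the length used for scaling still bear on it. Highest were Mrpl41 (35.8 FPKM), Mrpl27 (20.6) and Mrps21 (20.2), and lowest Mrpl33 (1.82), Mrpl53 (1.74) and Mrps35 (1.49). Within a group a typical gene varied little, with median coefficients of variation of 7.77% in Con, 7.30% in Mod and 9.75% in 6-OHG.

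Summed over the 78 genes, the level was 745, 725, 700.2 and 768 FPKM in the Con libraries, 745, 729, 764, 729 and 786 FPKM in the Mod libraries, and 630.3, 669, 597 and 623 FPKM in the 6-OHG libraries. Con and Mod overlapped, and every 6-OHG library lay below every library of the other groups. The same held for the large subunit, with group means of 489 ± 19.5 (SD, n = 4), 512 ± 17.4 (n = 5) and 433 ± 22.2 FPKM (n = 4), and for the small subunit, with 234 ± 10.6, 231 ± 6.50 and 191 ± 7.97 FPKM. As a share of the FPKM of all genes not encoded in mitochondria the 78 genes took 0.340% in Con, 0.339% in Mod and 0.302% in 6-OHG. These sums are a description, with no test over the set. In RNA from whole tissue, fewer cells that express a gene and less RNA of it per cell cannot be told apart.

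**Figure D1:**
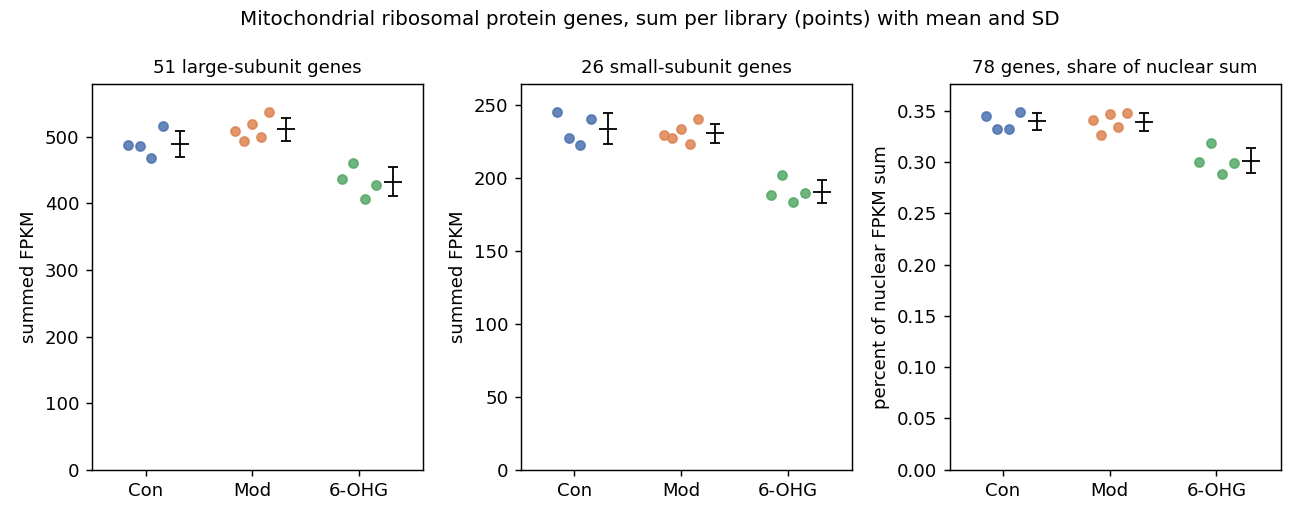
Summed FPKM of the 51 large-subunit genes and of the 26 small-subunit genes, and the share (percent) of all 78 genes in the nuclear FPKM sum, for each library (points, by group), with group mean and SD (black). The 4 6-OHG libraries lie below the Con and Mod libraries in each panel.

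Each difference is the later-named group's mean of log2(FPKM + 1) taken from that of the group named first, and this scale understates changes of weakly expressed genes. A gene rose or fell when its p-value from limma, adjusted over all 13905 genes tested, was under 0.05. The 3 comparisons share libraries: Mod enters the first and second, 6-OHG the second and the last, and Con the first and the last. Their results for one gene are therefore not independent of each other. Means are given ± SD over the libraries of a group.

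Of the 13 libraries, Con replicate 4 and 6-OHG replicate 2 were least like the others of their group, with mean correlations over all genes tested of 0.969 and 0.963. Without both libraries, a choice made after the data were seen, the members called were 12 higher in Mod against Con, 35 lower in 6-OHG against Mod and 1 higher in 6-OHG against Con. Of all genes tested 16.5%, 12.1% and 14.5% were then called in the same comparisons and directions. With all libraries these shares were 14.0%, 8.35% and 16.3%. Values with all libraries follow.

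After exposure to altitude, Mod against Con, few of these genes changed, and they did so in both directions. Of the 78, 7 rose and 6 fell, against 14.0% higher and 9.81% lower of all genes tested. The groups did not overlap for 10 genes that were higher and 5 that were lower, as for 13.5% and 8.87% of all genes. Differences were below 0 for 34 of 78, as for 47.6% of all genes. Their median difference was 0.02, beside 0.01 for all genes. Of 51 large-subunit genes 5 rose and 3 fell, and of 26 small-subunit genes 2 rose and 2 fell. The remaining gene, Mrps36, fell.

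The largest rises were those of 2 large-subunit genes. Mrpl41 (ENSMUSG00000036850, chromosome 2, 24974117 to 24975098 on GRCm38), whose protein has no bacterial counterpart, measured 30.7, 29.4, 30.2 and 34.5 FPKM in Con and 42.7, 36.1, 40.3, 39.8 and 47.8 FPKM in Mod (difference 0.39, SE 0.08, adjusted p = 0.00472). Mrpl2 (ENSMUSG00000002767, chromosome 17, 46646229 to 46650139), the counterpart of a bacterial protein near the catalytic centre, measured 13.6, 14.1, 13.9 and 15.8 FPKM in Con and 18.6, 18.8, 20.8, 17.7 and 19.3 FPKM in Mod (difference 0.38, SE 0.08, adjusted p = 0.00360). The Mod range began above the Con range for both genes. That also held for Mrpl57 (difference 0.28, SE 0.07, adjusted p = 0.00933), Mrps9 (0.19) and Mrpl58 (0.17). Mrpl58 encodes an enzyme that frees stalled ribosomes from their unfinished chain. For Mrps34 (difference 0.32, SE 0.09, adjusted p = 0.0252) and Mrpl9 (0.24) the groups overlapped.

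The rises of Mrpl2, Mrpl41, Mrpl57 and Mrps9 were called with any 1 library left out, and 3 others were not. Of these 4, only Mrpl2 was called under every alternative tried. Mrps9 was not called with equal FPKM sums (adjusted p = 0.193) or with the replicate number as a block, nor Mrpl57 with the block (adjusted p up to 0.0622), nor Mrpl41 with the block and the length and GC trend removed (0.0544). Mrpl58 passed the threshold narrowly (adjusted p = 0.0450) and lost its call without any of 9 libraries, the highest adjusted p being 0.135 when Con replicate 3 was left out. Mrpl9 lost it without any of 8 libraries, the highest adjusted p being 0.126 when the same library was left out. The rise of Mrps34 was not called when Con replicate 1 (adjusted p = 0.0586), Con replicate 3 (0.0758), Mod replicate 2 (0.0558) or Mod replicate 5 (0.0564) was left out. The number of genes called higher ranged from 4 to 9 with 1 library left out, being 4 without Con replicate 1, Con replicate 3 or Mod replicate 5.

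The 6 genes that fell with altitude were Mrpl35, Mrps21, Mrps36, Mrpl36, Mrpl12 and Mrps35. Mrpl35 (ENSMUSG00000052962, chromosome 6, 71812997 to 71826969), a large-subunit protein with a bacterial counterpart, measured 5.86, 5.45, 5.88 and 6.03 FPKM in Con and 4.02, 3.51, 4.67, 3.92 and 4.27 FPKM in Mod (difference -0.43, SE 0.07, adjusted p = 0.00160). Mrpl12 (ENSMUSG00000039640, chromosome 11, 120484613 to 120489065), the counterpart of the bacterial stalk protein that recruits translation factors, measured 21.7, 22.8, 19.7 and 22.9 FPKM in Con and 19.2, 17.7, 16.7, 16.5 and 17.4 FPKM in Mod (difference -0.30, SE 0.08, adjusted p = 0.0185). All Mod values were below all Con values for Mrpl35, Mrpl12 and Mrps21, whereas for Mrps36 (-0.37), Mrpl36 (-0.36) and Mrps35 (-0.24) the ranges overlapped.

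Mrps36 (ENSMUSG00000061474, chromosome 13, 100735955 to 100744659) measured 12.1, 12.1, 8.90 and 11.6 FPKM in Con, with replicate 3 inside the Mod range, and 7.71, 8.78, 9.92, 7.00 and 8.65 FPKM in Mod (adjusted p = 0.0194). Its call was lost without Con replicate 1 (adjusted p = 0.0606) or 2 (0.0579). Its pseudogene copies in the table, Mrps36-ps1 and Mrps36-ps2, averaged 1.54 and 1.01 FPKM, and how reads shared with them were assigned is not stated. The highest copy of a member was Mrpl48-ps at 11.9 FPKM, which fell in Mod against Con (difference -0.40, adjusted p = 0.0302). Mrpl48 itself was not called there and fell in 6-OHG against Con (-0.19). The call of Mrpl12 was lost without Con replicate 2 (adjusted p = 0.0523). Mrps35, a low gene at 1.87 ± 0.0906 FPKM in Con and 1.44 ± 0.205 FPKM in Mod, lost its call without any of 6 libraries (highest adjusted p = 0.0773, when Con replicate 1 was left out).

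Libraries with 6-OHG had lower FPKM than Mod libraries for a large part of these genes, and differences below 0 for nearly all of them. Of the 78, 26 fell and 0 rose by limma (0 at an unadjusted p under 0.05), against 8.35% lower and 6.98% higher of all genes tested. The share that fell was 33.3%. The difference was below 0 for 74 of 78, as for 54.1% of all genes, and the median was -0.20, beside -0.02 for all genes. For 30 genes the 6-OHG libraries lay wholly below the Mod libraries, as for 8.34% of all genes, and for 0 wholly above, as for 7.60%. No member was called higher under any of 27 other settings of the analysis.

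Both subunits and both origins were represented. Of the large-subunit genes 18 of 51 fell (median -0.20) and of the small-subunit genes 8 of 26 (median -0.20). Among genes with a bacterial counterpart 17 of 47 fell (median -0.20), and among those without one 9 of 31 (median -0.18). These shares were not tested against each other.

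**Figure D2:**
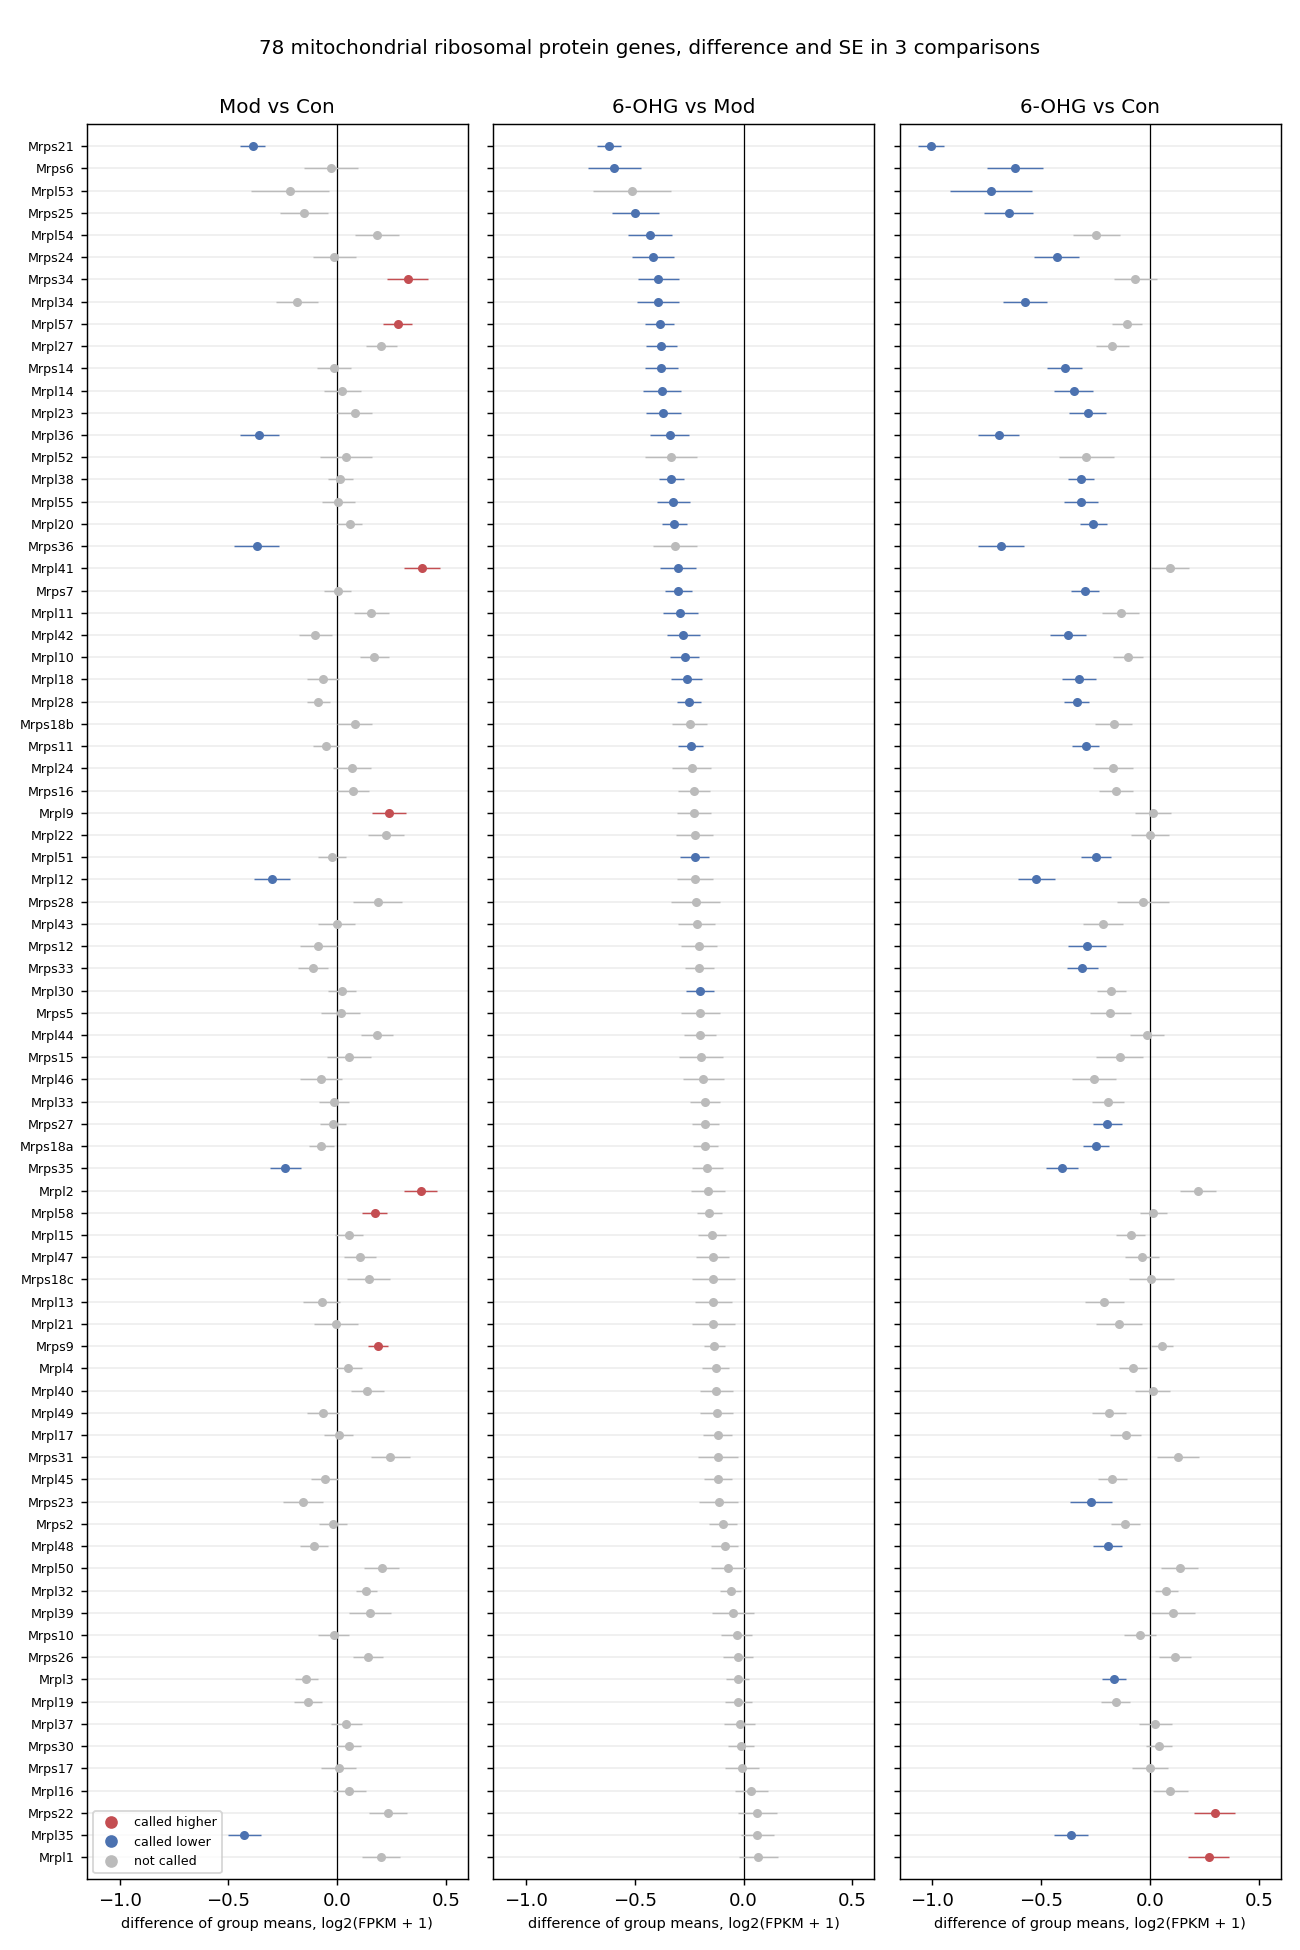
Difference of group means on the log2(FPKM + 1) scale (x axis, point with SE) for each of the 78 genes (rows, ordered by 6-OHG against Mod) in 3 comparisons, coloured by call. In the middle panel 74 of 78 points lie left of 0 and 26 are called lower.

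Mrps21 stood at the end of that order. It encodes the small-subunit counterpart of bacterial S21, a short protein, and is annotated as ENSMUSG00000054312, chromosome 3, 95862634 to 95871519 on GRCm38. Its level was 27.7, 25.9, 25.4 and 29.5 FPKM in Con, 19.2, 19.96, 21.8, 20.9 and 20.4 FPKM in Mod and 13.3, 12.3, 12.7 and 13.6 FPKM in 6-OHG. The groups formed 3 steps that did not overlap, and the mean with 6-OHG was 0.479 times that of Con. Mrps21 fell in Mod against Con (difference -0.39, SE 0.06, adjusted p = 5.09e-04), in 6-OHG against Mod (difference -0.62, SE 0.06, adjusted p = 7.46e-04) and in 6-OHG against Con (difference -1.01, SE 0.06, adjusted p = 7.51e-07). It was the only one of the 26 whose fall from Mod was called under all 27 other settings.

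Mrps6, another small-subunit protein with a bacterial counterpart (ENSMUSG00000039680, chromosome 16, 92058270 to 92112227), measured 8.82, 7.77, 8.01, 8.02 and 8.54 FPKM in Mod and 3.50, 5.88, 5.04 and 6.44 FPKM in 6-OHG (difference -0.59, SE 0.12, adjusted p = 0.00736). The Con libraries, at 7.58 to 9.84 FPKM, covered the Mod range. Of its exons 19.9% overlap those of the predicted gene Gm49711 and 10.4% those of Slc5a3, a transporter gene on the same strand that was not called between these groups (difference -0.07, SE 0.11, adjusted p = 0.717). How the authors assigned shared fragments is not stated.

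Mrps25, a small-subunit protein without bacterial counterpart (ENSMUSG00000014551, chromosome 6, 92169525 to 92184033), measured 7.28, 7.82, 9.31, 7.22 and 9.50 FPKM in Mod and 4.70, 5.66, 7.05 and 4.82 FPKM in 6-OHG (difference -0.50, SE 0.11, adjusted p = 0.00960). All 6-OHG values were the lower ones, replicate 3 being nearest to Mod. The exons of Mrps25 overlap those of Nr2c2, a nuclear receptor gene on the opposite strand, over 69.8% of their length. Nr2c2 itself rose (difference 0.41, SE 0.08, adjusted p = 0.00555). The strand setting of the counting is not stated, so fragments of these genes may not be fully told apart.

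Mrpl27, Mrpl23 and Mrpl38 of the large subunit fell. Mrpl27, whose bacterial counterpart reaches toward the peptidyl transferase centre, measured 21.8, 24.9, 23.9, 21.1 and 24.9 FPKM in Mod and 16.5, 20.3, 17.3 and 16.8 FPKM in 6-OHG (difference -0.38, SE 0.07, adjusted p = 0.00505). Mrpl23, the counterpart of a protein at the mouth of the exit tunnel, fell from 3.12 ± 0.289 to 2.19 ± 0.253 FPKM (difference -0.37, SE 0.08, adjusted p = 0.00973), while its pseudogene copy Mrpl23-ps1 averaged 1.57 FPKM. Mrpl38, without bacterial counterpart, had the smallest p-value after Mrps21 and fell from 10.2 ± 0.531 to 7.93 ± 0.185 FPKM (difference -0.33, SE 0.06, adjusted p = 0.00304). For all 3 genes the groups did not overlap.

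Mrpl34 measured 10.2, 10.8, 10.9, 9.70 and 10.9 FPKM in Mod and 7.93, 7.66, 6.94 and 8.60 FPKM in 6-OHG (difference -0.39, SE 0.10, adjusted p = 0.0166), a call lost without 6-OHG replicate 3 (adjusted p = 0.0511). Mrpl14 (0.38), Mrpl20 (0.32) and Mrpl28 (0.25) fell by the amounts given in brackets on the log2 scale, each with groups apart. In the small subunit the same held for Mrps14 (0.38), Mrps7 (0.30) and Mrps11 (0.24). Mrps24, which fell by 0.42, Mrpl54, which fell by 0.43, and Mrpl30, the call nearest to the threshold (adjusted p = 0.0499), are named after their values were seen. Mrpl30 lost its call without any of 9 libraries. Mrps24 shares 15.4% of its exon length with Urgcp on the same strand.

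A step down at each stage was also seen in Mrpl36, the counterpart of a very short bacterial protein of the large subunit (ENSMUSG00000021607, chromosome 13, 73328513 to 73332178). It measured 9.65, 12.4, 11.4 and 10.6 FPKM in Con, 8.82, 7.75, 9.67, 7.13 and 8.52 FPKM in Mod and 6.69, 6.15, 7.10 and 5.66 FPKM in 6-OHG. Mrpl36 fell in Mod against Con (difference -0.36, SE 0.09, adjusted p = 0.0128) and in 6-OHG against Mod (difference -0.34, SE 0.09, adjusted p = 0.0247). Its second call was lost without any 1 of Mod replicates 1, 3 and 5 and 6-OHG replicate 4 (adjusted p up to 0.0769). That call was also lost with the length and GC trend removed (difference -0.17, adjusted p = 0.253) and with equal FPKM sums (-0.25, adjusted p = 0.104). Mrps21 and Mrpl36 were the only members called lower in both of these comparisons.

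**Figure D3:**
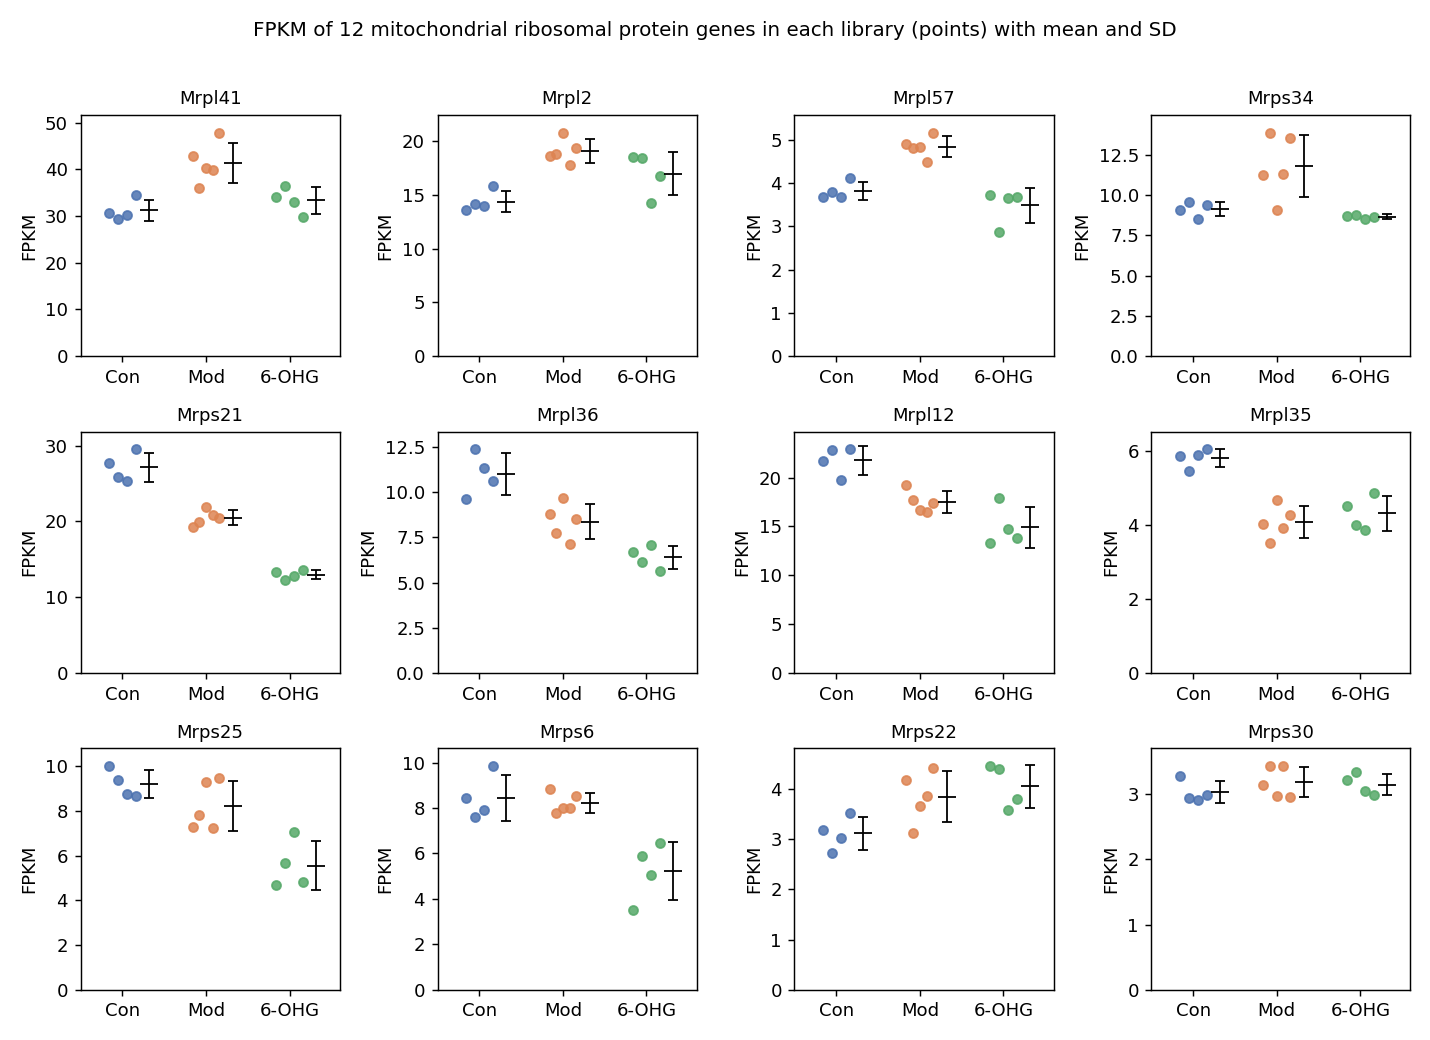
FPKM (y axis, from 0) of 12 of the genes in each library (points, by group), with group mean and SD (black). Mrpl41, Mrpl57 and Mrps34 have their highest mean in Mod, Mrps21 and Mrpl36 step down from Con over Mod to 6-OHG, and Mrps30 is not called in any comparison.

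For 3 genes the direction turned: Mrpl41, Mrpl57 and Mrps34 rose in Mod against Con and fell in 6-OHG against Mod. The Mod libraries enter both differences with opposite signs, so a high value in Mod alone gives this pattern. Mrpl57 (ENSMUSG00000021967, chromosome 14, 57826234 to 57829296), a large-subunit protein without bacterial counterpart, measured 3.67, 3.79, 3.68 and 4.11 FPKM in Con, 4.91, 4.80, 4.83, 4.49 and 5.16 FPKM in Mod and 3.72, 2.88, 3.66 and 3.68 FPKM in 6-OHG (6-OHG against Mod: difference -0.38, SE 0.07, adjusted p = 0.00317). Mod lay above both other groups in every library. Between 6-OHG and Con Mrpl57 was not called (difference -0.11, SE 0.07, adjusted p = 0.273).

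Mrpl41 measured 34.2, 36.5, 32.97 and 29.7 FPKM in 6-OHG, overlapping Mod in replicate 2 (difference -0.30, SE 0.08, adjusted p = 0.0275), and was not called against Con (difference 0.09, SE 0.09, adjusted p = 0.451). Its fall from Mod lost the call without Mod replicate 1 (adjusted p = 0.0602) or 5 (0.0555) and without 6-OHG replicate 3 (0.0602) or 4 (0.0864). That fall was also not called with the length and GC trend removed (-0.11, adjusted p = 0.430) or with equal FPKM sums (-0.20, adjusted p = 0.148). Mrps34 (ENSMUSG00000038880, chromosome 17, 24895116 to 24897502), a small-subunit protein whose human gene is mutated in an inherited encephalopathy, measured 9.06, 9.55, 8.55 and 9.42 FPKM in Con, 11.3, 13.9, 9.09, 11.3 and 13.5 FPKM in Mod and 8.73, 8.80, 8.49 and 8.68 FPKM in 6-OHG. It fell from Mod (difference -0.39, SE 0.09, adjusted p = 0.0157) and was not called against Con (difference -0.07, SE 0.10, adjusted p = 0.640). Mrps34 overlaps 2 genes: Mapk8ip3 on the opposite strand over 63.4% of its exon length and Nme3 on the same strand over 37.0%. Nme3 fell with 6-OHG (difference -0.74, SE 0.14, adjusted p = 0.00520) and was not called in Mod against Con (0.07, adjusted p = 0.754), and Mapk8ip3 fell in Mod against Con (difference -0.18, SE 0.05, adjusted p = 0.0264).

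Against Con, the 6-OHG libraries combine exposure and compound. Of the 78 genes 30 fell and 2 rose, against 14.4% lower and 16.3% higher of all genes tested, with a median of -0.17 beside 0.0034. Differences were below 0 for 60 of 78 (49.4% of all genes), and 31 lay wholly below and 2 wholly above Con (12.5% and 15.6% of all genes). Of the 30, 18 were also called lower against Mod, of which 16 had not been called in Mod against Con. The other 12 comprised 4 that had fallen in Mod against Con and 8 called in this comparison alone. In none of the 3 comparisons were 34 of the 78 called.

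After Mrps21, the largest falls from Con on the log2(FPKM + 1) scale were those of Mrpl53 (-0.73), Mrpl36 (-0.70), Mrps36 (-0.69), Mrps25 (-0.65), Mrps6 (-0.62), Mrpl34 (-0.57) and Mrpl12 (-0.52). Mrpl36 fell from 11.00 ± 1.16 to 6.40 ± 0.631 FPKM (adjusted p = 2.63e-04), and Mrps36 from 11.2 ± 1.53 to 6.54 ± 0.536 FPKM (adjusted p = 6.15e-04). Mrpl12 measured 13.3, 17.95, 14.7 and 13.8 FPKM in 6-OHG, against 19.7 to 22.9 FPKM in Con (difference -0.52, SE 0.09, adjusted p = 8.51e-04). Its replicate 2 was inside the Mod range, and against Mod Mrpl12 was not called (adjusted p = 0.0848, or 0.0107 without that library). Mrps35, the lowest of the 78, fell from 1.87 ± 0.0906 to 1.17 ± 0.0445 FPKM (difference -0.40, SE 0.07, adjusted p = 0.00169), with groups apart. Mrpl53, at 2.31, 2.34, 3.00 and 1.58 FPKM in Con and 1.04, 0.698, 0.833 and 1.37 FPKM in 6-OHG (difference -0.73, SE 0.19, adjusted p = 0.0114), shares 88.0% of its exon length with Gm42688 on the same strand, which was not called (0.01, adjusted p = 0.915).

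The 2 genes that rose were Mrps22, a small-subunit protein whose defects cause a disease of respiratory chain assembly in children, and Mrpl1, the counterpart of the bacterial protein at the stalk where spent transfer RNA leaves. Mrps22 measured 3.18, 2.73, 3.03 and 3.52 FPKM in Con, 4.18, 3.12, 3.67, 3.86 and 4.42 FPKM in Mod and 4.46, 4.39, 3.59 and 3.80 FPKM in 6-OHG (difference 0.30, SE 0.09, adjusted p = 0.0292). Mrpl1 measured 3.20, 2.84, 3.09 and 3.20 FPKM in Con, 3.34, 3.31, 3.62, 4.17 and 4.10 FPKM in Mod and 4.15, 4.81, 3.40 and 3.46 FPKM in 6-OHG (difference 0.27, SE 0.09, adjusted p = 0.0440). The 6-OHG libraries lay above the Con libraries for both, and within the Mod range for 3 of 4 values in each gene. Neither call was firm: Mrps22 lost it without any of 5 libraries (Con replicate 1, 2 or 3 and 6-OHG replicate 1 or 2, adjusted p up to 0.0823), and Mrpl1 without any of 7 (each Con replicate, Mod replicate 3 and 6-OHG replicate 1 or 2, adjusted p up to 0.110).

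A few members are given for their role or level. Mrps30, a large-subunit protein, measured 2.91 to 3.28 FPKM in Con, 2.96 to 3.43 FPKM in Mod and 2.99 to 3.34 FPKM in 6-OHG, and no comparison called it (adjusted p = 0.547, 0.916 and 0.639). Mrps18a, also of the large subunit, fell from 7.71 ± 0.391 FPKM in Con to 6.34 ± 0.391 FPKM in 6-OHG (difference -0.25, SE 0.06, adjusted p = 0.00830) and missed the threshold against Mod (adjusted p = 0.0547). Mrps12, the counterpart of the bacterial protein at the decoding site, fell from 10.9 ± 1.76 to 8.68 ± 0.715 FPKM in 6-OHG against Con (difference -0.29, SE 0.09, adjusted p = 0.0259). Con replicate 1 at 13.5 FPKM was the highest of its values, and the call was lost without it (adjusted p = 0.0546) and without 6-OHG replicate 3 (0.0723). Mrpl33 was not called in any comparison, its levels being 1.94 ± 0.159, 1.92 ± 0.195 and 1.57 ± 0.113 FPKM in the order Con, Mod and 6-OHG.

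The 78 genes are short beside most genes tested, and in 6-OHG against Mod the difference of all genes moved with exon length. Of 2084 tested genes with under 1500 bases of exon 20.2% fell, of 2771 with 1500 to 3000 bases 14.8%, of 3600 with 3000 to 5000 bases 6.28% and of 5439 longer genes 1.89%. The 78 genes fell in 11 of 20, 8 of 27, 6 of 17 and 1 of 14 cases in the same classes. Their medians were -0.32, -0.22, -0.14 and -0.13, each below the -0.18, -0.12, -0.04 and 0.07 of all genes of that class. The 26 that fell had a median exon length of 1686 bases and the 52 others 2789 bases, beside 4103 bases for all genes tested. Between the quartiles of the 78 genes' own lengths, 11.4% of all genes fell and 2.27% rose.

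With the trend of each library on exon length and GC content removed, 14 of the 78 genes fell from Mod to 6-OHG, 9 of them among the 26 called without it. Of all genes tested 4.60% then fell, beside 8.35% without the removal. The median of the 78 was -0.14 beside -0.03 for all genes. Mrps21 (which fell by 0.62 before and 0.45 after), Mrps25 (0.50 and 0.61), Mrps6 (0.59 and 0.48), Mrpl57, Mrps14, Mrpl23 and Mrpl38 were among those 9. Among those not called after it were Mrpl34, Mrps34, Mrpl27, Mrpl14, Mrpl20, Mrpl28 and Mrps7 (adjusted p = 0.291, 0.149, 0.0679, 0.348, 0.0608, 0.558 and 0.107). Mrpl36 and Mrpl41 also lost their calls (0.253 and 0.430). Rescaling all libraries to equal FPKM sums left 11 lower with a median of -0.11, beside 2.86% lower of all genes. It moved the median of all genes to 0.06 and the share of calls that were higher from 45.5% to 77.7%. In 6-OHG against Con the number that fell was also 30 with the trend removed, 24 of them among the 30 called without it. Of all genes 13.8% fell there with the trend removed and 14.4% without.

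**Figure D4:**
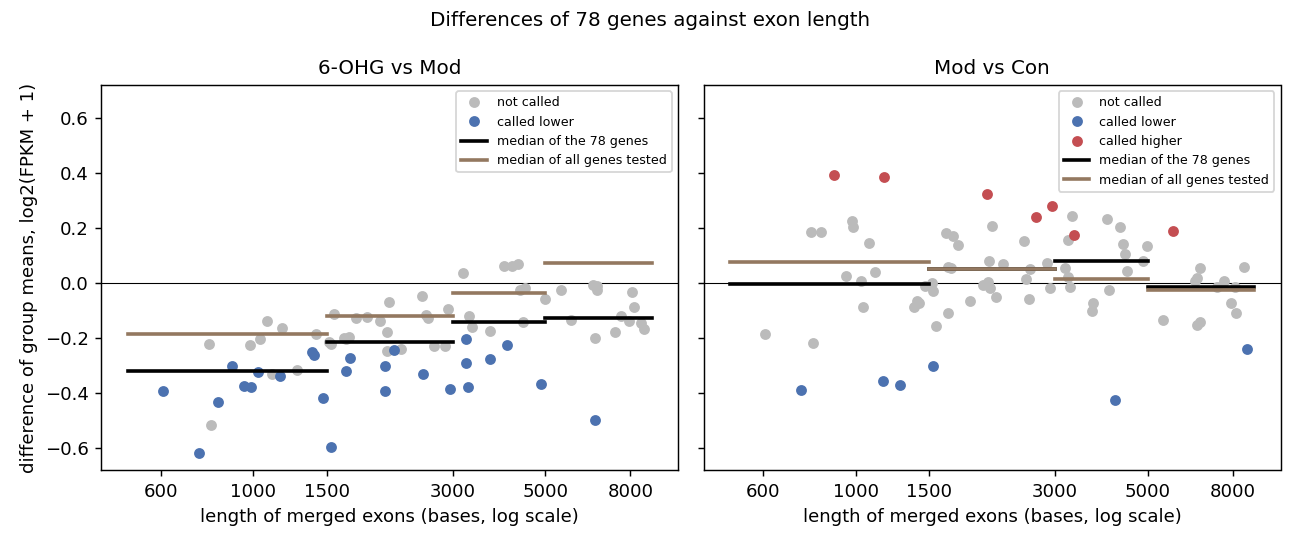
Difference of group means on the log2(FPKM + 1) scale (y axis) against length of merged exons in bases (log x axis) for the 78 genes, coloured by call, in 6-OHG against Mod (left) and Mod against Con (right). Horizontal lines give the median of the 78 genes (black) and of all genes tested (brown) in 4 length classes. On the left the black line is below the brown one in every class.

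Genes that work with the mitochondrial ribosome were counted in lists chosen by function. Of all genes tested 14.0% rose and 9.81% fell in Mod against Con, and 6.98% rose and 8.35% fell in 6-OHG against Mod. Of 5 mitoribosome proteins that carry other symbols, 3 fell from Mod to 6-OHG: Chchd1 from 13.9 ± 1.14 to 9.60 ± 0.532 FPKM (difference -0.49, SE 0.08, adjusted p = 0.00262), Aurkaip1 (-0.30) and Gadd45gip1 (-0.25). Aurkaip1 had risen in Mod against Con (0.25, adjusted p = 0.0314). Dap3, a GTP-binding protein of the small subunit, was not called in that comparison and rose in 6-OHG against Con (difference 0.22, SE 0.05, adjusted p = 0.00852). The list's median was -0.25 in 6-OHG against Mod.

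Translation factors moved both ways with altitude, 4 of 13 higher and 2 lower. Tufm, which delivers transfer RNA to the ribosome, fell from 21.6 ± 1.02 FPKM in Con to 13.7 ± 1.65 FPKM in Mod (difference -0.63, SE 0.08, adjusted p = 1.82e-04) and further to 10.98 ± 0.590 FPKM with 6-OHG (difference -0.29, SE 0.08, adjusted p = 0.0289). Mrrf, the recycling factor, fell in Mod against Con (-0.38, adjusted p = 0.00262). Guf1 (0.34) and Gfm2 (0.29), which encode GTPases of this machinery, rose there. In 6-OHG against Mod 2 of 13 fell, Tufm and Pdf (-0.34), which removes the formyl group from new chains.

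Of 20 mitochondrial transfer RNA synthetases 3 rose in Mod against Con, Iars2 (0.24), Hars2 (0.22) and Nars2 (0.23), and 1, Mars2 (0.32), rose in 6-OHG against Mod. Among 24 assembly and ribosomal RNA modification genes 1, Mettl17 (-0.29), fell from Mod to 6-OHG (4.17%, beside 8.35% of all genes), and the median was -0.09. In mitochondrial transcription and RNA processing 4 of 19 fell and 1 rose, with Slirp (-0.48) and Fastk (-0.26) among those that fell and Fastkd3 (0.35) the one that rose. Cox14 (-0.49) and Coa3 (-0.47), which act in the synthesis of cytochrome oxidase subunit 1, fell out of 7 genes for insertion and translational activation.

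The RNAs of the ribosome and the messages it translates were not called between Mod and 6-OHG: of 15 mitochondrially encoded RNAs 0 rose and 0 fell by limma (0 higher and 3 lower at an unadjusted p under 0.05), with a median of -0.19. The 12S ribosomal RNA, mt-Rnr1, averaged 2492 ± 383 FPKM in Mod and 2007 ± 315 FPKM in 6-OHG (difference -0.31, SE 0.14, adjusted p = 0.148). The 16S RNA, mt-Rnr2, averaged 2317 ± 385 and 1931 ± 259 FPKM (difference -0.26, SE 0.14, adjusted p = 0.241).

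Among regulators known to drive nuclear genes for mitochondria, 3 of 11 were higher and 0 lower by limma in 6-OHG against Mod. Of all genes tested 6.98% were higher, and of those with 5000 or more bases of exon 14.2%. Called were the coactivator genes Ppargc1a, from 5.98 ± 0.426 to 8.85 ± 2.06 FPKM (difference 0.48, SE 0.12, adjusted p = 0.0156), and Pprc1, from 3.00 ± 0.114 to 3.81 ± 0.166 FPKM (difference 0.26, SE 0.05, adjusted p = 0.00506). The other call was the coactivator gene Ppargc1b, from 0.849 ± 0.136 to 1.62 ± 0.251 FPKM (difference 0.50, SE 0.09). Ppargc1b reached the mean of 1 FPKM over the libraries only through its 6-OHG values, so its call carries no weight here. The list's median, with Ppargc1b included, was 0.12. The DNA-binding regulators of the list, among them Gabpa, Nrf1 and Yy1, were not called in this comparison.

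Protein import, through which every protein of the mitochondrial ribosome passes, had 9 of 22 genes lower with 6-OHG than in Mod (40.9%, median -0.20). Small translocase parts were among them: Tomm7 fell from 21.5 ± 1.97 to 14.9 ± 0.857 FPKM (difference -0.50, SE 0.07, adjusted p = 0.00170), Timm8b from 94.8 ± 2.50 to 75.2 ± 7.07 FPKM (-0.34) and Pam16 from 5.24 ± 0.659 to 3.69 ± 0.189 FPKM (-0.40). In Mod against Con 4 of 22 rose (18.2%, beside 14.0% of all genes), with Timm44 (0.60), Timm9 (0.43) and Tomm20 (0.40) the clearest. For comparison, of 76 genes for cytosolic ribosomal proteins 53 fell in 6-OHG against Mod (69.7%, median -0.38). In Mod against Con 7 of them rose (9.21%, beside 14.0% of all genes). The companion lists were not matched for exon length. Of all genes with under 1500 bases of exon 20.2% fell from Mod to 6-OHG.

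**Figure D5:**
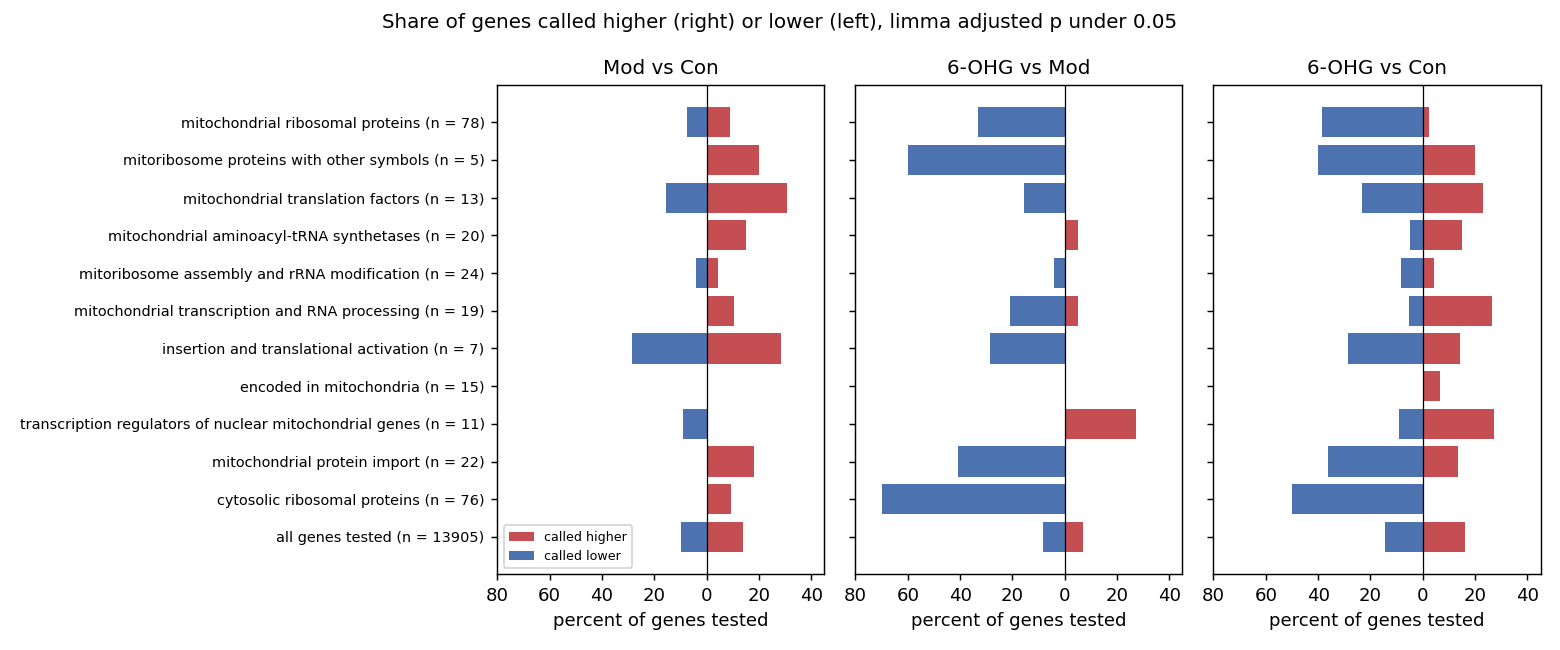
Share of tested genes called higher (red, to the right) or lower (blue, to the left) in percent (x axis) for the 78 mitochondrial ribosomal protein genes, companion lists and all genes tested (rows), in 3 comparisons. In 6-OHG against Mod 33.3% of the mitochondrial and 69.7% of the cytosolic ribosomal protein genes are lower, beside 8.35% of all genes. The lists are not matched for exon length, and of all genes with under 1500 bases of exon 20.2% are lower there.

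Since many members fell together, their promoters were searched for letters known to be bound by regulators of nuclear genes for mitochondria. RefSeq promoter windows on GRCm38.p6, from 250 bases before to 50 after the start, were found for 69 of the 78 genes. The letters CCGGAAG, read on either strand and recognised by GABPA and other ETS factors, were in 26 of the 69 windows (37.7%), beside 19.4% of 9773 tested genes and 9.93% of all 27025 genes with a window. AAGATGGCG, recognised by YY1, was in 8 (11.6%, beside 3.63% of tested genes), and GCATGCGC, recognised by NRF1, in 8 (11.6%, beside 6.00%). GGGCGG, the GC box of SP1, was in 34 (49.3%, beside 69.6%). CCAAT (39.1%, beside 42.9%) and TATAAA (7.25%, beside 8.50%) were near the share of tested genes.

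CCGGAAG was in 6 of 23 windows of genes that fell from Mod to 6-OHG and in 20 of 46 windows of the others. AAGATGGCG was in 4 of 23 and 4 of 46. A match describes these letters only and shows no bound factor. The last 150 bases before the start are given for 5 genes, 4 that fell from Mod to 6-OHG and 1 (Mrps22) that did not. Mrps21 (chr3:95871515-95871664 on the minus strand) is shown as the largest fall on the log2(FPKM + 1) scale and holds none of CCGGAAG, AAGATGGCG and GCATGCGC in these bases. Mrpl27 (chr11:94653641-94653790 on the plus strand) has CCGGAAG 55 bases before the start, and Mrpl34 (chr8:71464776-71464925 on the plus strand) has it 37 bases before the start. Mrps11 (chr7:78782981-78783130 on the plus strand) has CGCCATCTT, which is AAGATGGCG on the other strand, 108 bases before the start. Mrps22 (chr9:98601680-98601829 on the minus strand) has CCGGAAG 11 bases before the start and rose against Con. Capitals mark these matches, and each sequence runs 5′ to 3′ toward the start.
Mrps21: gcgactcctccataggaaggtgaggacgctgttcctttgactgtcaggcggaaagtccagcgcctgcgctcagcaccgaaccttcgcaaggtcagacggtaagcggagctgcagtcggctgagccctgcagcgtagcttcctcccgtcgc
Mrpl27: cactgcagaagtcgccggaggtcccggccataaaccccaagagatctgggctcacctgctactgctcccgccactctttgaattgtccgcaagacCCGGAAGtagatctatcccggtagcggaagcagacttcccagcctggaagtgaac
Mrpl34: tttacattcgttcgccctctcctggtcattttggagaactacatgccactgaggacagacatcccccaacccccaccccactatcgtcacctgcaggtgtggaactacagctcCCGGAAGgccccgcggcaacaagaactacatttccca
Mrps11: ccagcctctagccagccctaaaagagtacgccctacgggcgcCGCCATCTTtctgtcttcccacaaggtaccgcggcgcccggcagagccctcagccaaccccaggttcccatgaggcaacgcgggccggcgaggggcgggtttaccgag
Mrps22: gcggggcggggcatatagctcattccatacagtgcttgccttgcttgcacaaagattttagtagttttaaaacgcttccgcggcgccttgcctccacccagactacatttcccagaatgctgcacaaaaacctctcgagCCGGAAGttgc

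Many of these genes start close to another gene. A gene on the opposite strand started within 1000 bases, head to head, for 33 of the 78 (42.3%), beside 15.6% of 12027 tested protein-coding genes. The 33 include diverging genes and genes whose first parts overlap, as for Mrpl48 and Rab6a. They are therefore not all pairs that diverge from a shared promoter. Mrps11 and Mrpl46 form such a pair of 2 members, and Mrps11 fell with 6-OHG while Mrpl46 was not called (adjusted p = 0.212). Of 9 tested partners of members that fell from Mod to 6-OHG, partners that are not members themselves, 1 fell as well, Gga3 beside Mrps7. Of all genes tested 8.35% fell there, and 1 of 9 cannot be told from that share. Fau, which encodes a cytosolic ribosomal protein, fell beside Mrpl49, a member that was not called (adjusted p = 0.297).

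Facts of the whole series bear on these values. FPKM sums ranged from 268208 to 299371 in Con, from 282978 to 312908 in Mod and from 272992 to 278335 in 6-OHG, so that every 6-OHG sum lay below every Mod sum. Mitochondrially encoded RNA took 20.6% to 28.7% of the sums, in overlapping ranges in the 3 groups. The table carries no read totals, so no counting error could be attached to a value. Neuronal markers were abundant, their 7 genes summing to 754 to 921 FPKM over all libraries. Some markers of other cells were called between the groups. Of all genes tested 14.0% rose and 9.81% fell in Mod against Con. The shares were 6.98% and 8.35% in 6-OHG against Mod, and 16.3% and 14.4% in 6-OHG against Con. A single call in so short a list cannot be told from these shares. All 4 endothelial markers rose in Mod against Con, their sum being 23.0 to 30.0 FPKM in Con, 43.5 to 48.6 in Mod and 36.0 to 46.7 in 6-OHG. Of 5 liver markers tested 4 fell in Mod against Con, and Fabp1 was listed at 0 in 6-OHG. The liver marker not called was Ttr, which also serves as the choroid plexus marker. All 5 had their highest mean log2 value in Con and may have reached the minimum mean of 1 FPKM only through it. Their calls in either comparison with Con therefore carry no weight here. In Mod against Con 1 of 7 neuronal (Tubb3), 2 of 6 astrocyte (Aqp4, Gja1), 2 of 3 oligodendrocyte precursor (Cspg4, Olig2) and 1 of 5 microglial markers (Tmem119) fell. None of the 6 oligodendrocyte and 4 erythroid markers was called there. From Con to 6-OHG those 6 genes fell too, and genes that also fell included the oligodendrocyte marker Mag, the microglial marker Csf1r, the erythroid marker Hbb-bt and the same 4 liver markers, while all 4 endothelial markers rose. From Mod to 6-OHG 1 of 4 endothelial (Cldn5, -0.35) and 1 of 4 erythroid markers (Hba-a2, -1.67) fell, and 1 of 7 neuronal markers (Map2, 0.35) rose, while none of the 6 astrocyte, 6 oligodendrocyte, 5 microglial, 3 oligodendrocyte precursor and 5 liver markers tested was called. Choroid plexus markers, with Ttr the 1 gene tested, summed to 276 to 689 FPKM in Con, 43.9 to 247 in Mod and 2.19 to 354 in 6-OHG. Oligodendrocyte markers summed to 758 to 1810 FPKM in Mod and 620.0 to 1132 in 6-OHG. The part of cell makeup in the members' differences was not tested.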

How the data were processed

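RNA from mouse brain was sequenced in 13 libraries as pairs of 150 bases. The deposited values are FPKM per Ensembl gene, made by the authors; the submitters' processing notes name, with neither role nor order, HISAT2 2.2.1 and cutadapt 1.9, featureCounts 1.5.0-p3 and StringTie 2.1.6, edgeR, DESeq2 and FastQC, and the builds GRCm38 and mm10. Strand setting and read totals are not given in the sources used here. Among low FPKM values, 4.37% to 5.79% lay at the smallest steps sought for a read pair. Larger multiples of the step were not counted, so this share cannot show whether reads could be recovered. Reads were not recovered, and depth is unknown. Symbols, exon lengths and overlaps came from GENCODE M21, which matched 37499 of 37636 identifiers, and promoters from RefSeq.

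Values were analysed as log2(FPKM + 1) for 13905 genes averaging 1 FPKM or more, with limma 3.58.1 in R 4.3.3 (one mean per group, eBayes with trend) and Benjamini-Hochberg adjustment over all genes tested. The fit was tested on simulated data. Tables and plots used Python 3.11.15, pandas 2.3.3, numpy 2.4.6 and matplotlib 3.10.9. Means are followed by the SD over 4 Con, 5 Mod and 4 6-OHG libraries. The members and lists were chosen with earlier results of these data known. Named were, per comparison, up to 12 called members of smallest p in each direction, those called against the majority or with opposite signs in 2 comparisons, the 3 highest and 3 lowest, those nearest 1 FPKM, and Mrps18a, Mrps30, Mrps36, Mrpl12 and Mrps12, with up to 4 called genes per companion list. Alternatives changed the pseudocount, filter, scaling, moderation, weights, groups fitted, replicate block and length trend, or left out libraries.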

Additional observations from a re-analysis of the deposited data

Results flagged for a closer look

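In 4 of 99 groups of values (32 named genes and the summed level of all 78, each in the 3 groups), 1 library lay farther from the others than Dixon's 95% critical value allows, where chance gives about 1 in 20. Mrpl57 was at 2.88 FPKM in 6-OHG replicate 2, against 3.66 to 3.72 FPKM in the other 6-OHG libraries. Mrps11 was at 5.46 FPKM in 6-OHG replicate 1, against 5.03 to 5.08 FPKM. Mrps14 was at 13.1 FPKM in Mod replicate 5, against 10.5 to 10.6 FPKM. Mrps36 was at 8.90 FPKM in Con replicate 3, against 11.6 to 12.1 FPKM.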

How the results depend on the processing

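In Mod against Con the 7 members called higher became 4 with no filter on low values, 4 with equal FPKM sums, 16 with sample weights, 2 with the replicate block, 2 with the length and GC trend removed and the block, 4 to 9 with 1 library left out, and 12 without Con replicate 4 and 6-OHG replicate 2, an alternative chosen after seeing the data. Of all genes tested 14.0% were called higher before these changes. That share was 7.87% with equal sums, 18.4% with sample weights, 8.97% with the block and 9.65% with trend and block. It was 16.5% without both libraries. The 6 members called lower became 4 with the block (5.70% of all genes, from 9.81%) and 4 to 6 with 1 library left out. With equal sums the median of the members moved from 0.02 to -0.046, and that of all genes from 0.01 to -0.046. In 6-OHG against Mod the 26 called lower became 11 with equal sums, 12 with the block, 14 with the trend removed, 1 with trend and block together (11 of all genes were then lower), 37 with sample weights, and 19 to 33 with 1 library left out. Of all genes 8.35% were lower before these changes. That share was 2.86% with equal sums, 3.42% with the block, 4.60% with the trend removed and 11.6% with sample weights. The members' median of -0.20 became -0.11 with equal sums and -0.13 with equal sums without mitochondrially encoded genes. It became -0.14 with the trend removed, -0.13 with trend and block, and -0.23 to -0.17 with 1 library left out. The median of all genes, -0.02 at first, became 0.06 with equal sums and 0.05 with equal sums without mitochondrially encoded genes. With the trend removed it was -0.03, with or without the block. In 6-OHG against Con the 2 called higher became 0 with no filter, 1 with only the compared groups, with the block or without both libraries named above, 1 that is neither of the 2 with a minimum of 5 FPKM or with trend and block, and 0 to 3 with 1 library left out (0 without Con replicate 1, 2 or 3 or 6-OHG replicate 1 or 2). The 30 called lower became 19 with trend and block (10.2% of all genes, from 14.4%), and 25 to 35 with 1 library left out. The cause was not tested.

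No pairing by replicate number was seen: same-numbered libraries correlated at -0.483 to 0.346 in their deviations from the group means. Differently numbered libraries correlated at -0.492 to 0.651. Such deviations cancel out within a group, so these values cannot exclude a pairing. The block left 2 members higher and 4 lower for Mod against Con, 0 and 12 for 6-OHG against Mod, and 1 and 25 for 6-OHG against Con. Of all genes it left 8.97% and 5.70%, 2.67% and 3.42%, and 12.9% and 10.9%.

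Among the named members, directions turned only where the member was not called. Mrps30 in Mod against Con was -0.00120 with equal sums. Mrps12 there was 0.012 without Con replicate 1. Mrps30 in 6-OHG against Mod was 0.066 with equal sums, 0.051 with equal sums without mitochondrially encoded genes, and 0.0089, 0.0088 and 0.0069 without Mod replicate 2, Mod replicate 4 and 6-OHG replicate 4, with a range of -0.034 to 0.0089 over all libraries left out in turn. Mrps12 there was 0.0062 with the trend removed. In 6-OHG against Con, with the trend removed and with trend and block, Mrps30 was -0.056 and Mrps34 0.079. Of all calls in 6-OHG against Mod, 45.5% were higher, 77.7% with equal sums, 73.1% with equal sums without mitochondrially encoded genes, 57.5% with quantile normalization and 35.3% with the trend removed. For Mod against Con the share was 58.7%, and 40.6% with equal sums. For 6-OHG against Con it was 53.2%, and 64.2% with equal sums without mitochondrially encoded genes.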
